A study of Arabidopsis thaliana with 9 samples.

Results

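Seedlings of the Arabidopsis thaliana line icpk that had received 10 mM KNO3 for 15 min were compared with wild type seedlings that had received 10 mM KCl for 15 min, by RNA sequencing of 3 libraries per group. The comparison takes the 6 libraries of these groups among 9 in all and every gene row of the count tables, 32678 genes, of which 20288 had enough counts to be tested. The icpk line is a triple mutant in the calcium-dependent protein kinase genes CPK10, CPK30 and CPK32 that expresses CPK10(M141G)-DHA, a version of CPK10 that the small molecule 3MBiP can block, and the labels call it inducible. Wild type seedlings with 10 mM KNO3 for 15 min (3 libraries) are given side by side. All seedlings were 7 days old, had grown in liquid medium whose nitrogen came from 2.5 mM ammonium succinate, and were harvested whole, with about 10 pooled per sample. The protocols describe 10 µM 3MBiP given 2 min before the treatment, but the labels do not say which libraries received it. KCl-treated icpk seedlings are not among the libraries analysed here. Genotype, nitrate and possibly the inhibitor therefore differ together between icpk KNO3 and wild type KCl, and their parts in a difference cannot be told apart. What the comparison shows is where icpk seedlings stood, after nitrate, relative to the level of wild type seedlings without nitrate.

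Nitrate is both a nutrient and a signal for plants. Within minutes it raises the messages for its own uptake, its reduction to ammonium and the supply of reducing power, largely through NIN-like transcription factors (NLPs) that move into the nucleus. Calcium-dependent protein kinases bind calcium and phosphorylate their targets, and the series, by its title, concerns their part in the nitrate network. Potassium chloride provides the same potassium without nitrate.

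Gene counts ranged from 11822413 to 18366578 per icpk KNO3 library, from 14265988 to 17126496 per wild type KNO3 library and from 5987352 to 19564785 per wild type KCl library. The smallest, wild type KCl replicate 3, stands apart, since 80.5% of its records were multiply aligned and organelle genes took 4.89% of its gene counts, against at most 1.55% in the other 8 libraries. Counts over all genes are therefore also given without it. Levels below are in CPM, counts scaled to a common library total with TMM factors, errors of levels are SDs over 3 libraries, and log2 differences are icpk KNO3 minus wild type KCl with their standard errors (SE) unless another pair is named. Unless another fit is named, p-values are from edgeR's quasi-likelihood test with Benjamini-Hochberg adjustment over all 20288 genes. Other fits, such as those with libraries left out or with DESeq2, were adjusted over their own genes. A gene was called where the adjusted p of the fit was below 0.05. Nothing in the labels says that the pooled samples of a group came from separate experiments, so the spread behind the p-values is that of these samples and could be technical.

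Between icpk KNO3 and wild type KCl, 639 genes were higher (3.15% of those tested) and 779 lower (3.84%), together 6.99%, and the median log2 difference over all genes was 0.0013. At least 2-fold changes made up 277 of the higher genes (1.37%) and 352 of the lower ones (1.74%). Without wild type KCl replicate 3 the counts were 356 higher and 375 lower, without wild type KCl replicate 2 they were 354 and 335, and without icpk replicate 3 the lower genes were 412. The at least 2-fold lower genes were 231, 222 and 232 in these 3 fits. All 3 icpk libraries lay above all 3 wild type KCl libraries for 14.1% of tested genes and below them for 13.6%. For wild type KNO3 against the same KCl libraries, 722 genes were higher (3.56%) and 485 lower (2.39%). These comparisons share libraries, so their values are given side by side for each gene, and the difference between icpk KNO3 and wild type KNO3 was tested in its own comparison, in which 11.3% of genes were higher in icpk and 11.4% lower.

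The targeted kinases differed first. CPK30 stood at 3.74, 3.60 and 2.84 CPM in icpk KNO3, at 26.5, 28.7 and 27.4 CPM in wild type KNO3 and at 24.0, 28.2 and 23.6 CPM in wild type KCl. The icpk libraries lay far below both wild type groups, which overlapped each other. The log2 difference from wild type KCl was -2.90 ± 0.13 (adjusted p = 1.76e-06). CPK32 gave 20.1, 25.1 and 18.8 CPM in icpk KNO3, 199, 213 and 206 CPM in wild type KNO3 and 137, 269 and 200.2 CPM in wild type KCl, a difference of -3.24 ± 0.23 (adjusted p = 1.48e-05). CPK10 went the other way, with 165, 166 and 149 CPM in icpk KNO3, 88.3, 81.4 and 101 CPM in wild type KNO3 and 61.9, 78.3 and 72.0 CPM in wild type KCl. All icpk libraries were above all wild type libraries, and the difference was 1.18 ± 0.12 (adjusted p = 0.000202). Transcripts of the introduced and the native CPK10 fall into 1 count, and the labels do not say where the mutations in CPK30 and CPK32 lie, so the counts left in icpk do not measure how complete the loss is. Members called against wild type KCl made up 8.33% of 24 other CPK genes tested, against 6.99% of all genes. Of the 24, 9 had an unadjusted p below 0.05, and DESeq2 called 0 higher and 4 lower. Set against wild type KNO3, 0 were higher in icpk and 10 lower, where 11.3% of all genes were higher and 11.4% lower. In edgeR's comparison with wild type KCl 0 were higher and 2 lower, with a list median of -0.22. The 2 were CPK2 (-0.76 ± 0.18, adjusted p = 0.0294) and CPK6 (-0.59 ± 0.14, adjusted p = 0.0311). Both calls were lost without any 1 of icpk replicates 1 and 3 and wild type KCl replicates 2 and 3 (adjusted p from 0.0834 to 0.101 for CPK2 and 0.0595 to 0.116 for CPK6), and the list had 0 lower members without icpk replicate 3 or wild type KCl replicates 2 or 3 and 4 without wild type KCl replicate 1.

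**Figure D1:**
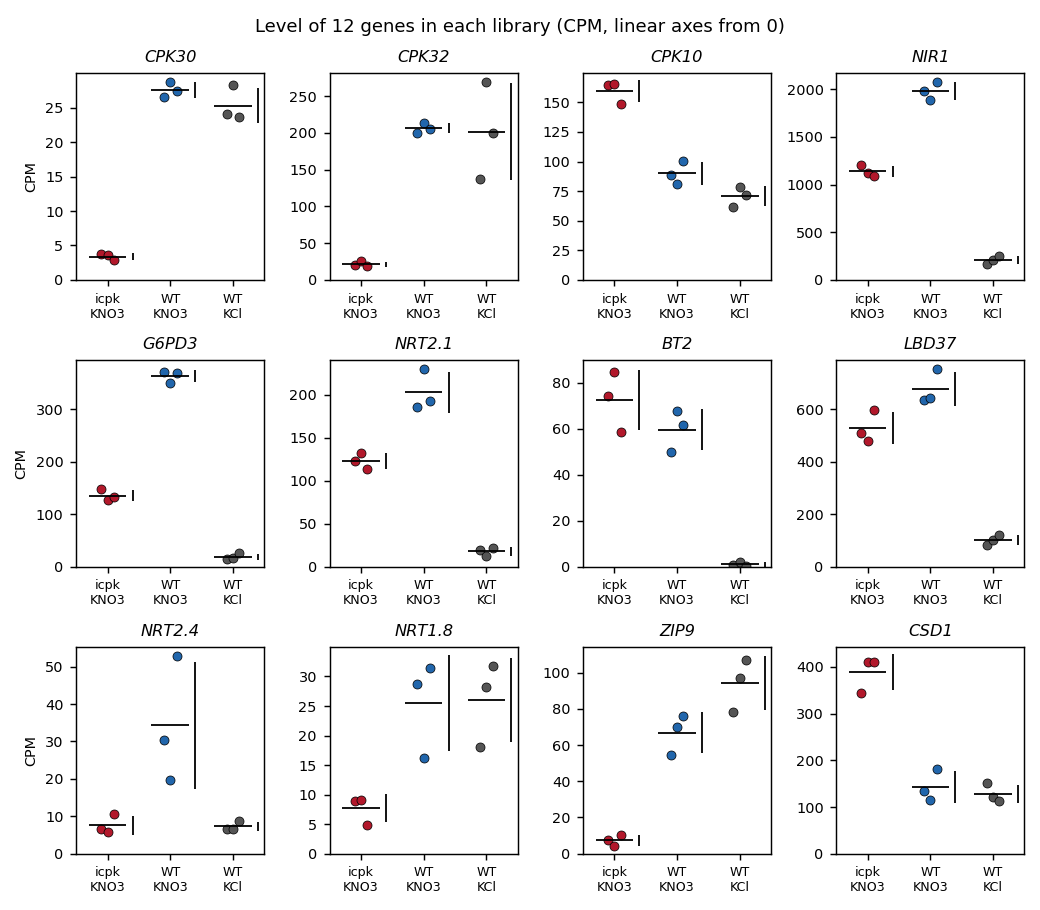
Level of 12 genes in CPM on linear axes that start at 0, with 1 point per library, the group mean as a horizontal line and ± 1 SD as a vertical line, for icpk KNO3, wild type (WT) KNO3 and wild type KCl. CPK30, CPK32 and ZIP9 lie near 0 in icpk, NIR1, G6PD3 and NRT2.1 lie between the wild type groups, BT2 and LBD37 are near wild type KNO3, and NRT2.4 is at the wild type KCl level.

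The reduction pathway of nitrate stood above the wild type KCl level in icpk. Of 6 tested genes of nitrate and nitrite reduction 5 were higher and 0 lower, with a median log2 difference of 0.83. In wild type KNO3 the count over KCl was also 5 higher and 0 lower, with a median of 1.61. Set against wild type KNO3, icpk had 0 higher and 5 lower. Over all genes, 3.15% were higher in icpk KNO3 and 3.56% in wild type KNO3 than in wild type KCl, and 11.4% were lower in icpk KNO3 than in wild type KNO3. Nitrite reductase (NIR1) measured 1207, 1118 and 1095 CPM in icpk KNO3, 1976, 1882 and 2072 CPM in wild type KNO3 and 167, 206 and 255 CPM in wild type KCl. No 2 of these groups overlapped, and icpk was 5.45-fold above wild type KCl (2.44 ± 0.17, adjusted p = 1.48e-05), while wild type KNO3 was 9.44-fold above it. Nitrate reductase NIA2 measured 951, 921 and 932 CPM in icpk KNO3, 1573, 1505 and 1841 CPM in wild type KNO3 and 379.7, 519 and 509 CPM in wild type KCl (0.99 ± 0.15, adjusted p = 0.00356). Its icpk libraries varied little and were separate from both wild type groups. UPM1, which makes the siroheme precursor that nitrite reductase needs, averaged 449 ± 19.8 CPM in icpk KNO3, 739.5 ± 30.9 CPM in wild type KNO3 and 80.8 ± 6.25 CPM in wild type KCl (2.47 ± 0.11, adjusted p = 1.76e-06). The second nitrate reductase NIA1 (0.67 ± 0.18, adjusted p = 0.0464) and the molybdenum cofactor gene CNX2 (0.52 ± 0.12, adjusted p = 0.0267) passed narrowly. NIA1 lost its call without any 1 of the 6 libraries (adjusted p from 0.0697 to 0.133), and CNX2 without any 1 of them other than icpk replicate 3 (adjusted p from 0.0596 to 0.0912), so that 3 or 4 of the 6 genes were called in these fits.

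Nitrate transporters differed in where they stood. Of 18 tested, 4 were higher in icpk than in wild type KCl and 1 lower (median 0.14), against 6 higher and 0 lower in wild type KNO3. The high-affinity transporter NRT2.1 had 123, 132 and 114 CPM in icpk KNO3, 185, 229 and 193 CPM in wild type KNO3 and 19.4, 12.6 and 22.4 CPM in wild type KCl. All icpk libraries were above wild type KCl and below wild type KNO3, by a log2 difference of 2.79 ± 0.19 (adjusted p = 1.14e-05) and -0.72 ± 0.17 (adjusted p = 0.0133). Its partner protein gene NRT3.1 (2.08 ± 0.11 from wild type KCl and -0.86 ± 0.11 from wild type KNO3) and NRT1.7 (0.63 ± 0.10 and -0.50 ± 0.09), which loads nitrate into phloem, had the same order of groups. The vacuolar nitrate exchanger CLCA was higher in icpk (0.45 ± 0.10, adjusted p = 0.0255), with means of 87.3 CPM in icpk KNO3, 66.3 CPM in wild type KNO3 and 64.1 CPM in wild type KCl, a call lost without icpk replicates 2 or 3 or wild type KCl replicates 2 or 3 (adjusted p from 0.0651 to 0.114).

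Other transporters were not separated from the KCl level. NRT2.4, a high-affinity transporter of nitrogen-starved plants, had 6.60, 5.77 and 10.5 CPM in icpk KNO3, 30.4, 19.7 and 52.9 CPM in wild type KNO3 and 6.66, 6.61 and 8.80 CPM in wild type KCl. The icpk and KCl libraries overlapped, and all wild type KNO3 libraries were above both. The log2 difference from wild type KCl was 0.09 with a 95% interval of -0.72 to 0.89, which leaves out the wild type value of 2.26, and icpk lay -2.17 ± 0.34 from wild type KNO3 (adjusted p = 0.00241). NRT2.5, a related starvation transporter, averaged 1.26 CPM in icpk KNO3, 11.3 CPM in wild type KNO3 and 1.30 CPM in wild type KCl (interval -1.80 to 1.56). For NRT2.2, a close copy of NRT2.1 whose counts are uncertain for that reason, the call depended on the fit. It gave 32 counts over the icpk libraries and 2 over the wild type KCl libraries. This is a ratio of 14.6 with a 95% counting interval of 3.73 to 126, which covers counting error alone, and edgeR did not call it (adjusted p = 0.0615). DESeq2 called it higher (adjusted p = 0.00531), as did edgeR with no filter on low counts (adjusted p = 0.0435) or with a replicate block (adjusted p = 0.0169), so that 5 transporters were higher in those 3 fits. It was also called without icpk replicate 2 (adjusted p = 0.0183), and leaving out any other 1 of the 6 libraries gave adjusted p from 0.113 to 0.185. In wild type KNO3 it averaged 10.5 CPM, against 0.781 CPM in icpk KNO3.

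NRT1.8, which takes nitrate back out of the xylem, lay below the KCl level. It had 8.95, 9.15 and 4.91 CPM in icpk KNO3, 28.7, 16.2 and 31.5 CPM in wild type KNO3 and 18.1, 28.2 and 31.7 CPM in wild type KCl. Its icpk libraries lay below all 6 wild type libraries, and the wild type groups overlapped. The difference was -1.74 ± 0.31 from wild type KCl (adjusted p = 0.00805) and -1.73 ± 0.31 from wild type KNO3 (adjusted p = 0.00439). It was the 1 tested transporter called lower, a call that held without any 1 library but not without replicate 3 of every group (adjusted p = 0.089).

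**Figure D2:**
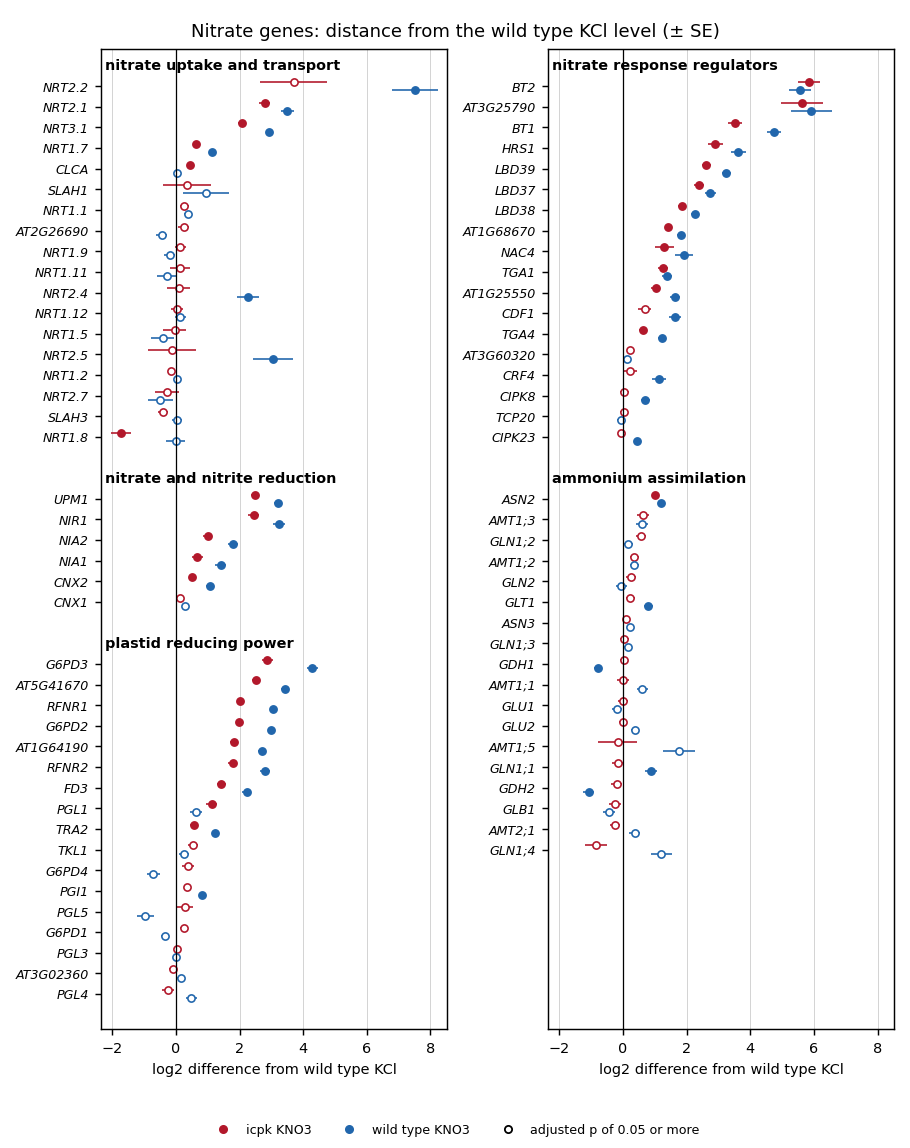
Log2 difference from wild type KCl (± SE) for tested members of 5 nitrate and ammonium lists, with icpk KNO3 above wild type KNO3 for each gene; filled points have an adjusted p below 0.05 and open points do not. Points share the same KCl libraries; most nitrate-raised genes are right of 0 in icpk but left of wild type KNO3, while BT2 (5.84 in icpk) is not, and NRT1.8 (-1.74) is left of 0.

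Regulators of the nitrate response had more members above the KCl level than any other of the 29 lists. Of 18 tested, 12 were higher in icpk than in wild type KCl and 0 lower, with a median log2 difference of 1.27. In wild type KNO3, 16 were higher and 0 lower, with a median of 1.73. The scaffold protein gene BT2 had 74.2, 84.6 and 58.6 CPM in icpk KNO3, 49.7, 67.7 and 61.7 CPM in wild type KNO3 and 0.923, 2.14 and 0.183 CPM in wild type KCl. The nitrate groups overlapped, and both were far above KCl. The difference from wild type KCl was 5.84 ± 0.34 (adjusted p = 3.77e-06), or 6.58 when wild type KCl replicate 2 is left out, and icpk differed from wild type KNO3 by 0.28 ± 0.23, with a 95% interval of -0.22 to 0.79 (adjusted p = 0.413). Its close relative BT1 did not keep pace, with 60.8, 51.2 and 48.4 CPM in icpk KNO3, 126, 131 and 115 CPM in wild type KNO3 and 3.06, 6.34 and 4.95 CPM in wild type KCl. No groups overlapped for BT1, at 3.52 ± 0.21 from wild type KCl (adjusted p = 6e-06) and -1.22 ± 0.17 from wild type KNO3 (adjusted p = 0.00159).

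The LBD repressors of nitrogen genes all rose over the KCl level. LBD37 had 509, 479 and 596 CPM in icpk KNO3, 637, 642 and 754 CPM in wild type KNO3 and 82.0, 102 and 121 CPM in wild type KCl (2.38 ± 0.16, adjusted p = 1.4e-05). Against wild type KNO3 its difference was -0.36 ± 0.15 with an interval of -0.70 to -0.02 (adjusted p = 0.12). LBD38 (1.85 ± 0.13) and LBD39 (2.62 ± 0.13) were likewise above KCl and were -0.40 and -0.62 from wild type KNO3 (adjusted p = 0.0423 and 0.00575). The GARP-type factor gene HRS1 was 2.89 ± 0.24 from wild type KCl, with means of 8.09 CPM in icpk KNO3, 13.4 CPM in wild type KNO3 and 1.16 CPM in wild type KCl. Of 2 genes annotated only as myb-like factors, AT1G68670 was 1.42 ± 0.11 and AT3G25790 was 5.63 ± 0.66 from wild type KCl (5.00 without icpk replicate 2). AT3G25790 averaged 5.16 CPM in icpk KNO3, 6.38 CPM in wild type KNO3 and 0.116 CPM in wild type KCl. It had only 4 counts over the wild type KCl libraries, so the size of its rise is uncertain. Its interval against wild type KNO3 was -1.04 to 0.48.

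Some other regulators stood at the KCl level in icpk. Over the whole list of 18 tested, all icpk libraries lay above all wild type KCl libraries for 15 genes, against 14.1% of all tested genes. The kinase gene CIPK23, which acts on the sensor NRT1.1, had 78.6, 87.5 and 70.6 CPM in icpk KNO3, 112, 106 and 116 CPM in wild type KNO3 and 81.6, 77.3 and 87.8 CPM in wild type KCl. The icpk libraries overlapped KCl and were all below wild type KNO3, and the interval against KCl, -0.28 to 0.16, leaves out the wild type value of 0.44. CIPK8 (interval -0.25 to 0.33, wild type 0.70) and the cytokinin response factor CRF4 (interval -0.29 to 0.70, wild type 1.14) were alike in this. Each of the 3 was lower in icpk than in wild type KNO3 (adjusted p = 0.00695 for CIPK23, 0.00658 for CIPK8 and 0.0117 for CRF4). Of 9 NIN-like genes 1 was higher than KCl and 2 lower. NLP3 had 20.8, 15.9 and 25.6 CPM in icpk KNO3, 67.0, 55.7 and 83.6 CPM in wild type KNO3 and 5.10, 3.34 and 5.50 CPM in wild type KCl (2.19 ± 0.24, adjusted p = 0.000397). NLP6 was lower (-0.57 ± 0.08, adjusted p = 0.0023) and so was NLP5 (-0.46 ± 0.11, adjusted p = 0.0313), whose call was lost without any 1 of icpk replicates 2 and 3 and wild type KCl replicates 2 and 3 (adjusted p from 0.0863 to 0.137), leaving 1 lower member. NLP7, the main nitrate-responsive NLP, was not called, at 87.7 CPM in icpk KNO3, 106 CPM in wild type KNO3 and 81.9 CPM in wild type KCl.

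Reducing power for nitrite reduction in root plastids comes from the oxidative pentose phosphate pathway. Of 17 tested genes 9 were higher in icpk than in wild type KCl and 0 lower, with a median of 0.56, and in wild type KNO3 the counts were again 9 and 0, with a median of 0.82. The plastid glucose-6-phosphate dehydrogenase G6PD3 had 147, 128 and 132 CPM in icpk KNO3, 371, 349 and 368 CPM in wild type KNO3 and 15.2, 16.4 and 25.7 CPM in wild type KCl. The 3 groups did not overlap, with icpk 7.32-fold and wild type KNO3 19.6-fold above KCl (2.87 ± 0.18, adjusted p = 6.26e-06, against 4.29 ± 0.19). The isoform G6PD2 (1.99 ± 0.10), the root ferredoxin-NADP reductases RFNR1 (2.02 ± 0.10) and RFNR2 (1.79 ± 0.15), the ferredoxin FD3 (1.43 ± 0.14) and the 6-phosphogluconate dehydrogenase family members AT5G41670 (2.53 ± 0.12) and AT1G64190 (1.83 ± 0.13) all rose over KCl. Each of these 7 genes was lower in icpk than in wild type KNO3, by log2 differences from -1.42 for G6PD3 to -0.79 for FD3. Of all 17, 10 were lower in icpk than in wild type KNO3 and 3 higher, where 11.4% of all genes were lower and 11.3% higher. The 3 were the dehydrogenases G6PD1 and G6PD4 and the 6-phosphogluconolactonase PGL5, none of which was called against KCl. PGL1, another 6-phosphogluconolactonase, rose over KCl and had means of 20.9 CPM in icpk KNO3, 14.8 CPM in wild type KNO3 and 9.42 CPM in wild type KCl (1.13 ± 0.18 from KCl, adjusted p = 0.0035; 0.50 ± 0.17 from wild type KNO3, adjusted p = 0.0551).

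Ammonium assimilation genes were called about as often as genes in general. Of 18 tested 1 was higher and 0 lower, against 6.99% of all genes in either direction, and 5 had an unadjusted p below 0.05. DESeq2 called 3 higher. The summed level of the list was 7062 to 7369 CPM in icpk KNO3, 6620 to 7239 CPM in wild type KNO3 and 6211 to 6399 CPM in wild type KCl, with no overlap between icpk KNO3 and wild type KCl. The called gene was the asparagine synthetase ASN2 (1.02 ± 0.10, adjusted p = 0.000177), at 78.1 ± 5.09 CPM in icpk KNO3, 89.2 ± 7.65 CPM in wild type KNO3 and 38.6 ± 2.91 CPM in wild type KCl. Without wild type KCl replicate 1 there were 2 higher. Glutamine synthetase GLN1;1 stood at 353 CPM in icpk KNO3, 723 CPM in wild type KNO3 and 398 CPM in wild type KCl, and glutamate synthase GLT1 at 759.9 CPM in icpk KNO3, 1125 CPM in wild type KNO3 and 651 CPM in wild type KCl. Neither was called against KCl, and both were lower than in wild type KNO3 (adjusted p = 0.00494 for GLN1;1 and 0.017 for GLT1). Glutamate dehydrogenases, which release ammonium from glutamate, showed the reverse. GDH1 had 89.6, 93.6 and 109.5 CPM in icpk KNO3, 57.7, 59.6 and 49.2 CPM in wild type KNO3 and 105, 90.1 and 94.0 CPM in wild type KCl, with an interval of -0.23 to 0.26 against KCl, and was higher than in wild type KNO3 (0.81 ± 0.11, adjusted p = 0.00138).

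The 8 largest rises over wild type KCl included BT2 and AT3G25790 above, and the other 6 were outside the lists. AT5G15060, of the LOB domain family, had 96 counts over the icpk libraries and 0 over the wild type KCl libraries. With 3 counts taken as the floor for the whole group, it was at least 29.2-fold higher, or at least 14.6-fold without wild type KCl replicate 1 and at least 18.6-fold without replicate 2 of that group. It was lower in icpk KNO3 (2.95, 2.06 and 1.59 CPM) than in wild type KNO3 (6.27, 5.39 and 6.92 CPM, adjusted p = 0.00455). AT2G21210, a SAUR-like gene, had 30.6, 21.5 and 25.5 CPM in icpk KNO3, 18.3, 23.6 and 18.1 CPM in wild type KNO3 and 0.875, 0.801 and 0.733 CPM in wild type KCl (4.95 ± 0.22, adjusted p = 1.76e-06). The kinase gene MAPKKK13 (4.62 ± 0.19), AT3G07350 of the DUF506 family (4.86 ± 0.27), AT5G10210 (4.77 ± 0.38) and AT2G22200 (4.42 ± 0.35) had means of 125, 163, 10.3 and 23.3 CPM in icpk KNO3, 119, 105, 11.2 and 21.0 CPM in wild type KNO3, and 4.95, 5.56, 0.381 and 1.01 CPM in wild type KCl. None of these 5 was called between icpk KNO3 and wild type KNO3, with adjusted p from 0.0605 for AT3G07350 to 0.76 for MAPKKK13.

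Most tested zinc uptake genes were lower in icpk than in wild type KCl. Of 12 tested, 7 were lower in icpk and 0 higher, with a median log2 difference of -0.77, and all 7 calls held without any 1 library. ZIP3 lost its call without replicate 3 of every group (adjusted p = 0.0687). In wild type KNO3, edgeR called 0 of the 12 in either direction, and 3 had an unadjusted p below 0.05. ZIP transporters carry zinc into the cell, and their messages are known to rise when zinc is short. ZIP9 had 7.39, 4.44 and 10.6 CPM in icpk KNO3, 54.3, 69.8 and 76.2 CPM in wild type KNO3 and 78.1, 97.2 and 107 CPM in wild type KCl. The icpk libraries were all far below both wild type groups (-3.67 ± 0.27 from KCl, adjusted p = 2.12e-05; -3.18 ± 0.26 from wild type KNO3, adjusted p = 0.000166). ZIP12 was nearly absent from icpk, with 0, 0.159 and 0.138 CPM in icpk KNO3, 4.0, 2.07 and 2.04 CPM in wild type KNO3 and 4.62, 5.14 and 8.43 CPM in wild type KCl (-5.61 ± 0.54, adjusted p = 0.000172). ZIP4 had 54.3, 43.3 and 60.1 CPM in icpk KNO3, 144, 133 and 186 CPM in wild type KNO3 and 166, 186 and 206 CPM in wild type KCl (-1.82 ± 0.16, adjusted p = 8.4e-05). ZIP5 (-1.11 ± 0.21), ZIP3 (-0.97 ± 0.16), ZIP1 (-0.87 ± 0.11) and IRT3 (-0.66 ± 0.12) were lower by less. The zinc sensor factors BZIP19 (28.0 CPM in icpk KNO3, 27.5 CPM in wild type KNO3 and 24.4 CPM in wild type KCl) and BZIP23 were not called.

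Within the plant, zinc and its chelators are moved by another set of genes, and of 12 tested 2 were higher and 4 lower (median 0.01). MTPA1, a zinc transporter of the cation diffusion family, had 0.695, 0.370 and 0.138 CPM in icpk KNO3, 9.69, 6.94 and 10.7 CPM in wild type KNO3 and 11.2, 9.55 and 14.7 CPM in wild type KCl, among the 8 largest falls (-4.89 ± 0.36, adjusted p = 2.39e-05). The nicotianamine synthase NAS2 (-0.85 ± 0.12) and the citrate exporter FRD3 (-0.72 ± 0.14) were also lower, at 35.4 and 22.0 CPM in icpk KNO3, 95.4 and 41.4 CPM in wild type KNO3 and 64.1 and 36.6 CPM in wild type KCl. Neither was called without replicate 3 of every group (adjusted p = 0.0513 for NAS2 and 0.084 for FRD3). Of the other called nicotianamine synthases, named after their values were seen, NAS1 was higher (1.15, adjusted p = 0.0155) and NAS4 lower (-0.73, adjusted p = 0.0176). NAS1 lost its call without icpk replicate 2 or wild type KCl replicate 2 (adjusted p from 0.0528 to 0.0736). NAS4 lost its call without icpk replicate 2 or wild type KCl replicate 3 (adjusted p from 0.0545 to 0.0654). The zinc pump HMA2, which loads xylem, was higher than KCl (0.75 ± 0.15, adjusted p = 0.0148) but not without icpk replicate 3 or wild type KCl replicate 2 (adjusted p from 0.0507 to 0.0749), and averaged 28.8 CPM in icpk KNO3, 77.4 CPM in wild type KNO3 and 17.3 CPM in wild type KCl. The higher members of this list were 1 without icpk replicates 2 or 3 and 0 without wild type KCl replicate 2.

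Some genes of iron deficiency and copper economy were higher in icpk. Of 13 iron deficiency genes tested out of 19, 5 were higher in icpk than in wild type KCl and 0 lower, with a median of 0.51, while in wild type KNO3 0 were higher and 2 lower. The iron transporter IRT1 had 19.7, 28.3 and 11.4 CPM in icpk KNO3, 0.0646, 0.861 and 0.132 CPM in wild type KNO3 and 2.19, 2.67 and 2.93 CPM in wild type KCl. All icpk libraries were above KCl and all wild type KNO3 libraries below it (2.98 ± 0.43 from KCl, adjusted p = 0.00232; 5.71 ± 0.54 from wild type KNO3, adjusted p = 0.000304). The iron regulator BHLH101 was higher at a low level, 1.22, 1.06 and 0.830 CPM in icpk KNO3, 0.0646, 0.115 and 0 CPM in wild type KNO3 and 0.146, 0.134 and 0 CPM in wild type KCl (3.01 ± 0.55, adjusted p = 0.00923). OPT3, which moves iron in phloem, had 168, 141 and 209 CPM in icpk KNO3, 68.3, 77.3 and 72.1 CPM in wild type KNO3 and 101, 109.5 and 105 CPM in wild type KCl (0.72 ± 0.13, adjusted p = 0.00931). The iron sensor BTS (0.54 ± 0.09) and the iron reductase FRO2 (1.11 ± 0.26, adjusted p = 0.0294) completed the 5. OPT3 and BTS lost their calls without replicate 3 of every group (adjusted p = 0.084 for OPT3 and 0.0634 for BTS). FRO2 lost its call without any 1 of icpk replicates 1 and 2 and wild type KCl replicates 1 and 2 (adjusted p from 0.066 to 0.133). The master regulator FIT1 was not called, at 3.33 CPM in icpk KNO3, 3.15 CPM in wild type KNO3 and 3.19 CPM in wild type KCl, and the 6 untested genes, BHLH38, BHLH39 and BHLH100 among them, had too few counts.

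Of 5 copper economy genes 3 were higher in icpk and 0 lower (median 1.48), and in wild type KNO3 edgeR called 0, with 1 at an unadjusted p below 0.05. The copper/zinc superoxide dismutase CSD2 of the plastid had 535, 450.4 and 599.8 CPM in icpk KNO3, 111, 118 and 147 CPM in wild type KNO3 and 188, 164 and 131 CPM in wild type KCl (1.71 ± 0.17, adjusted p = 0.000189). Its cytosolic counterpart CSD1 had 345, 411 and 411 CPM in icpk KNO3, 135, 115 and 181 CPM in wild type KNO3 and 151, 121 and 113 CPM in wild type KCl (1.59 ± 0.18, adjusted p = 0.000391), and their copper chaperone CCS was 1.48 ± 0.11 (adjusted p = 2.61e-05). For each of the 3, all icpk libraries were above all 6 wild type libraries. These messages are known targets of the microRNA miR398, and the gene MIR398a, looked up after its values were seen, had 0 counts over the icpk libraries, 63 over the wild type KNO3 libraries and 24 over the wild type KCl libraries. With the same floor of 3 counts for a group, it was at least 8.75-fold lower in icpk (adjusted p = 0.0114 with all libraries), or at least 5.06-fold without icpk replicate 2. The libraries were not made for small RNA, so these counts are not of the mature microRNA. No other miR398 gene is given here, and a part of miR398 in the higher levels of CSD1, CSD2 and CCS was not tested. SPL7, the factor that activates copper deficiency genes, averaged 37.6 CPM in icpk KNO3, 41.3 CPM in wild type KNO3 and 34.3 CPM in wild type KCl and was not called.

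**Figure D3:**
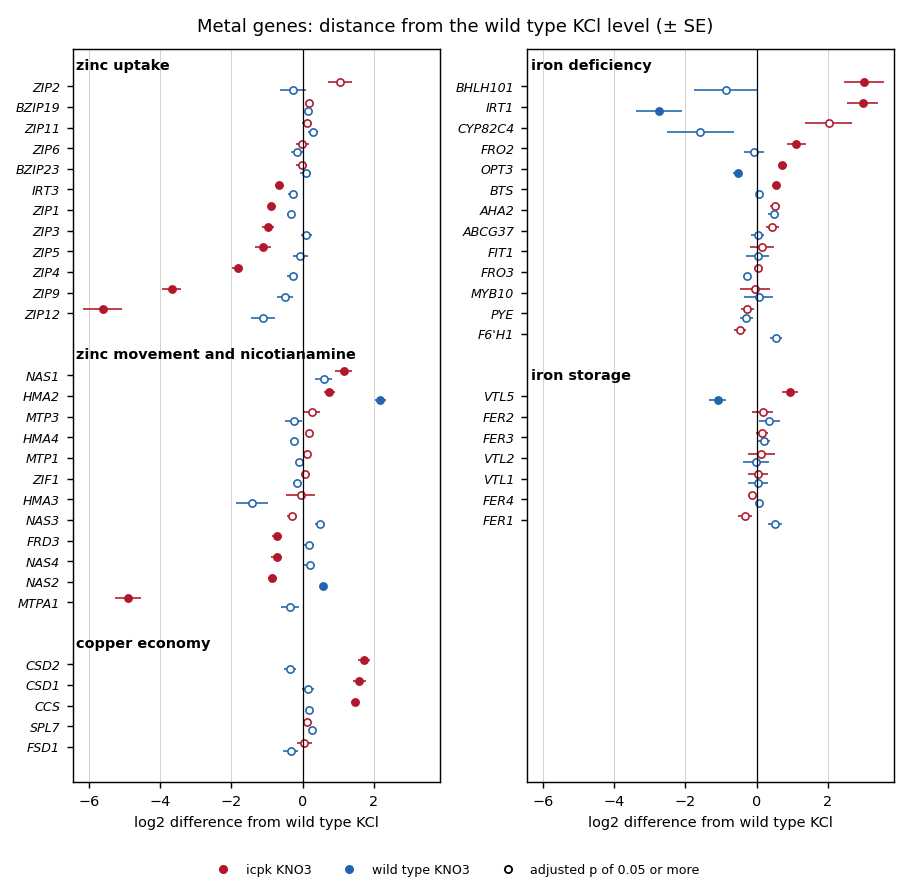
Log2 difference from wild type KCl (± SE) for tested members of 5 metal lists, with icpk KNO3 above wild type KNO3 for each gene; filled points have an adjusted p below 0.05. Zinc uptake genes extend to the left in icpk (ZIP12 at -5.61) with no filled wild type point, and CSD1, CSD2, CCS and IRT1 lie to the right.

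Carbonic anhydrases, zinc enzymes that hydrate carbon dioxide, were called on the list of shoot photosynthesis genes. Of 26 tested 2 were higher and 0 lower (7.69% called, against 6.99% of all genes), with a median of 0.04. CA1 had 2477, 1927 and 2322 CPM in icpk KNO3, 326, 677 and 277 CPM in wild type KNO3 and 733, 801 and 529 CPM in wild type KCl (1.70 ± 0.31, adjusted p = 0.00883). CA2 had 429, 386 and 547 CPM in icpk KNO3, 113, 143 and 108 CPM in wild type KNO3 and 127, 157 and 148 CPM in wild type KCl (1.66 ± 0.16, adjusted p = 0.000172). Neither gene's icpk libraries overlapped those of wild type, and the call of CA1 was lost without replicate 3 of every group (adjusted p = 0.0737). Summed over the list, photosynthesis markers took 61481 to 93490 CPM in icpk KNO3, 43625 to 61644 CPM in wild type KNO3 and 68451 to 83260 CPM in wild type KCl. Of 19 root markers edgeR and DESeq2 called 0, and 3 had an unadjusted p below 0.05 (median -0.12; 3 lower without icpk replicate 2), and their summed level was 210.0 to 295 CPM in icpk KNO3, 290.0 to 407 CPM in wild type KNO3 and 243 to 307 CPM in wild type KCl. Both sums overlapped between icpk KNO3 and wild type KCl, and their part in the differences above was not tested. In whole seedlings, fewer cells of a type and less RNA per cell cannot be told apart.

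Touch and rapid stress genes had more members below the KCl level than any other of the 29 lists. Of 25 tested 14 were lower in icpk than in wild type KCl and 2 higher, against 3.84% and 3.15% of all genes, with a median of -0.96. In wild type KNO3, by contrast, 3 were higher and 3 lower, with a median of 0.15. Against wild type KNO3 icpk had 0 higher and 17 lower, where 11.3% of all genes were higher and 11.4% lower. The ethylene response factor ERF105 had 21.9, 24.2 and 17.0 CPM in icpk KNO3, 88.4, 84.5 and 84.4 CPM in wild type KNO3 and 59.7, 77.4 and 70.4 CPM in wild type KCl (-1.71 ± 0.14, adjusted p = 3.86e-05). ERF5 had 30.2, 25.9 and 23.2 CPM in icpk KNO3, 73.8, 68.9 and 71.6 CPM in wild type KNO3 and 64.7, 91.4 and 91.6 CPM in wild type KCl (-1.64 ± 0.14, adjusted p = 8.35e-05). Both were below all wild type libraries in icpk, and their wild type groups stood closer to each other. The other 12 lowered genes, named after their values were seen, were ERF1A, ERF2, ERF6, ERF11, ERF104, ZAT6, ZAT10, ZAT11, WRKY33, WRKY40, WRKY53 and MKK9. Most encode transcription factors that wounding, touch or pathogen signals raise within minutes, and the steepest was ZAT11 (-2.30 ± 0.42, adjusted p = 0.00911), at 1.73 CPM in icpk KNO3, 9.33 CPM in wild type KNO3 and 8.63 CPM in wild type KCl. The lowered members were 8 without icpk replicate 2, again 8 without wild type KCl replicate 2, and 9 without replicate 3 of that group, and ZAT6, WRKY33, WRKY40, WRKY53, ERF2 and MKK9 lost the call in both of the first 2 fits, at adjusted p of at most 0.101.

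The 2 members that were higher belong to the cold response. CBF2 had 7.21, 7.51 and 6.92 CPM in icpk KNO3, 12.2, 7.86 and 12.6 CPM in wild type KNO3 and 1.99, 2.27 and 1.28 CPM in wild type KCl (1.88 ± 0.23, adjusted p = 0.000874). CBF1 gave 73 counts over the icpk libraries and 2 over the wild type KCl libraries, a ratio of 33.4 with a 95% counting interval of 8.91 to 281. Neither was called between icpk KNO3 and wild type KNO3 (adjusted p = 0.0526 for CBF2 and 0.0523 for CBF1). Of 7 heat shock genes edgeR and DESeq2 called 0 in icpk against KCl, where edgeR called 6.99% of all genes, and 0 had an unadjusted p below 0.05 (median -0.32).

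**Figure D4:**
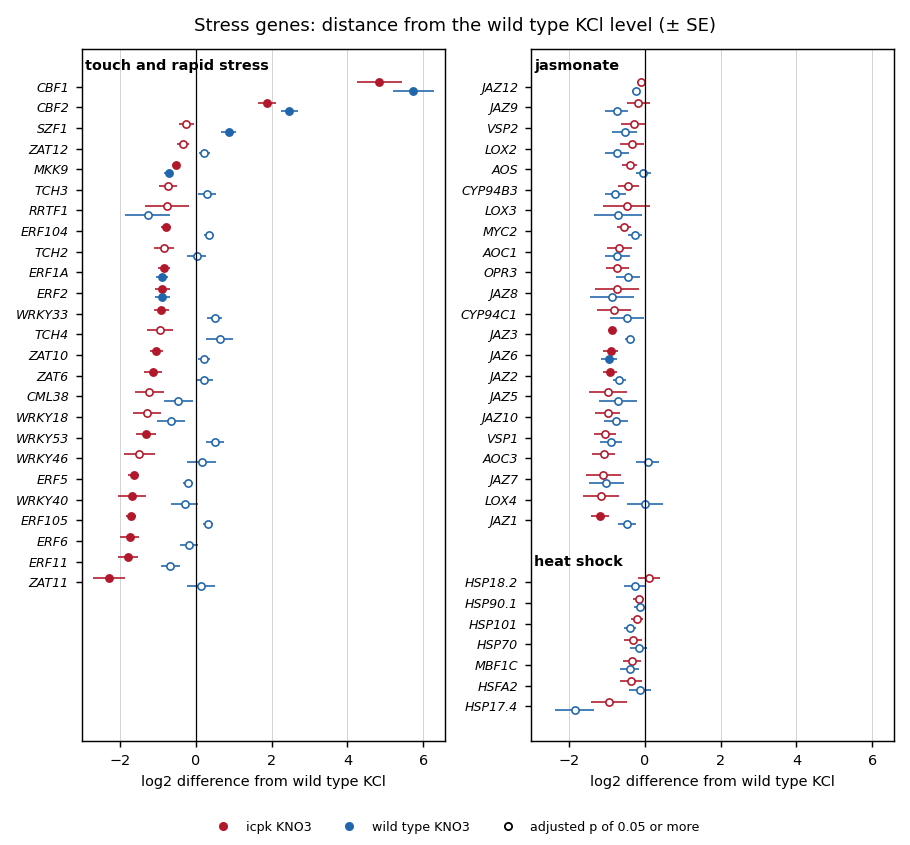
Log2 difference from wild type KCl (± SE) for tested touch and rapid stress genes (left) and jasmonate and heat shock genes (right), with icpk KNO3 above wild type KNO3 for each gene; filled points have an adjusted p below 0.05. Touch and rapid stress genes spread to the left in icpk (median -0.96), CBF1 and CBF2 lie to the right in both, and heat shock points are all open.

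Jasmonate genes had medians below 0 in both nitrate groups. Of 22 tested 4 were lower in icpk than in wild type KCl and 0 higher, all 4 JAZ repressors of jasmonate signalling, with a median of -0.78. In wild type KNO3 1 was lower, JAZ6 (-0.94), and 0 higher, with a median of -0.69, and 11 of the 22 had an unadjusted p below 0.05 in each comparison. JAZ3 had 38.2, 33.6 and 35.8 CPM in icpk KNO3, 42.8, 56.7 and 48.9 CPM in wild type KNO3 and 62.3, 63.6 and 71.5 CPM in wild type KCl (-0.87 ± 0.11, adjusted p = 0.00119), and its call held without any 1 library. JAZ1 (-1.19 ± 0.25), JAZ2 (-0.92 ± 0.18) and JAZ6 (-0.90 ± 0.20) each lost the call without wild type KCl replicate 2, and JAZ1 and JAZ6 also without icpk replicate 2 or wild type KCl replicate 3 and JAZ6 without icpk replicate 3 (adjusted p from 0.0513 to 0.0723 for JAZ1 and 0.0562 to 0.103 for JAZ6). The count was 8 without icpk replicate 1, 1 without wild type KCl replicate 2, and 2 without icpk replicate 2 or wild type KCl replicate 3. Against wild type KNO3 icpk had 2 lower and 0 higher of the 22, where 11.4% of all genes were lower and 11.3% higher. JAZ3 was lower there (adjusted p = 0.0154), and JAZ1, JAZ2 and JAZ6 were not called (adjusted p = 0.0581, 0.351 and 0.911).

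Genes of darkness and sugar starvation were tilted upward. Of 14 tested 5 were higher in icpk than in wild type KCl and 1 lower, with a median of 0.46, against 2 higher and 3 lower in wild type KNO3. The trehalose-phosphate synthase-like gene TPS8 had 142, 138 and 166 CPM in icpk KNO3, 81.6, 81.6 and 67.7 CPM in wild type KNO3 and 70.7, 64.8 and 52.1 CPM in wild type KCl (1.24 ± 0.13, adjusted p = 0.000317), with icpk above all wild type libraries. TPS9 (1.03 ± 0.12) and TPS10 (0.84 ± 0.12) rose over KCl, and TPS11 did so (0.75 ± 0.16, adjusted p = 0.0211) but not without icpk replicate 3 or wild type KCl replicate 3 (adjusted p from 0.0707 to 0.0737). Starvation genes that nitrate lowered in wild type stood at or above the KCl level. SEN1 had 39.5, 30.0 and 47.3 CPM in icpk KNO3, 9.88, 9.35 and 3.30 CPM in wild type KNO3 and 36.5, 32.7 and 26.8 CPM in wild type KCl (interval -0.39 to 0.92 against KCl). The asparagine synthetase ASN1 had 60.2, 29.3 and 90.6 CPM in icpk KNO3, 7.82, 11.5 and 4.42 CPM in wild type KNO3 and 26.4, 47.9 and 29.5 CPM in wild type KCl (interval -0.10 to 1.67), and both were higher in icpk than in wild type KNO3 (adjusted p = 0.00129 for SEN1 and 0.00203 for ASN1). The 1 lower member lost its call without any 1 library other than wild type KCl replicate 1, without which 2 were lower. Of 8 genes of branched-chain amino acid breakdown 1 was higher, MCCA (0.49 ± 0.11, adjusted p = 0.0236), which was not called without any 1 library other than icpk replicate 2 (adjusted p from 0.0587 to 0.0913). That list had 12.5% called, against 6.99% of all genes.

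Hormone genes differed in how icpk KNO3 compared with wild type KNO3. In that comparison 2 of 11 auxin genes were higher in icpk and 5 lower, and 0 of 11 cytokinin genes were higher and 3 lower. Over all genes tested, 11.3% were higher in icpk KNO3 than in wild type KNO3 and 11.4% lower. IPT3, the nitrate-responsive cytokinin synthesis enzyme, had 16.4, 18.0 and 24.9 CPM in icpk KNO3, 20.02, 19.5 and 28.8 CPM in wild type KNO3 and 2.04, 2.94 and 2.75 CPM in wild type KCl (2.97 ± 0.24, adjusted p = 4.67e-05), and its interval against wild type KNO3 was -0.63 to 0.23. The auxin receptor AFB3 had 114, 105 and 144 CPM in icpk KNO3, 109, 115 and 112 CPM in wild type KNO3 and 52.1, 48.4 and 45.3 CPM in wild type KCl (1.31 ± 0.12, adjusted p = 0.00012; interval against wild type KNO3 -0.15 to 0.37). PP2CA, a phosphatase of abscisic acid signalling, was 1.29 ± 0.13 from KCl and -0.15 ± 0.13 from wild type KNO3. The cytokinin-responsive ARR3 was higher than KCl (1.61 ± 0.25) and lower than wild type KNO3 (-1.41 ± 0.20, adjusted p = 0.00162), and the auxin synthesis gene TAR2 likewise (0.78 ± 0.10 and -0.40 ± 0.09, adjusted p = 0.0135). Of the lists these come from, cytokinin had 2 higher and 1 lower of 11, type-A response regulators 2 higher of 9, auxin 3 higher and 1 lower of 11 and abscisic acid 1 higher of 11. The called shares were 27.3%, 22.2%, 36.4% and 9.09% in that order, against 6.99% of all genes. The calls of CYP735A2 (0.97), CKX5 (-0.72), ARR7 (1.5), PIN4 (0.50) and IAA19 (-0.75) were less steady, and leaving out any 1 of the 6 libraries lost at least 2 of the 5 (adjusted p from 0.0528 to 0.132). Of these, CYP735A2 (-0.87 ± 0.21, adjusted p = 0.0145) and IAA19 (-1.57 ± 0.17, adjusted p = 0.000672) were lower in icpk KNO3 than in wild type KNO3. With 1 library left out, the cytokinin list had 1 to 3 higher and 0 to 2 lower, the type-A list 1 or 2 higher, the auxin list 2 or 3 higher and 0 to 2 lower, and the abscisic acid list 0 or 1 lower. CC-type glutaredoxins are small redox enzymes, and their genes are so alike that reads can be assigned to the wrong copy, which leaves each count uncertain. Of 5 tested 4 were higher (median 3.08, also with the gene at 0 counts set to its bound). AT3G62930 had 4.35, 4.39 and 2.14 CPM in icpk KNO3, 3.94, 2.81 and 2.77 CPM in wild type KNO3 and 0.340, 0.200 and 0.367 CPM in wild type KCl (3.60 ± 0.41, adjusted p = 0.000495). AT4G15700 was 3.08 ± 0.48, and AT4G15680, with 32 counts in icpk and 0 in wild type KCl, was at least 9.75-fold higher (at least 4.86-fold without wild type KCl replicate 1, 6.19-fold without wild type KCl replicate 2 and 6.32-fold without icpk replicate 2), though not called without wild type KCl replicate 2 (adjusted p = 0.0529), where 2 members were. AT4G15690 was called (2.17 ± 0.56, 2.89 without wild type KCl replicate 1) but lost its call without any 1 library (adjusted p from 0.0589 to 0.18).

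The largest falls outside the zinc lists were of other kinds. AT1G34047, of the defensin-like family of small secreted peptides, had 43.8, 28.7 and 27.3 CPM in icpk KNO3, 1031, 1394 and 962 CPM in wild type KNO3 and 771, 1011 and 1189 CPM in wild type KCl (-4.90 ± 0.27, 29.8-fold lower, adjusted p = 2.87e-06). AT2G36255 of the same family had 13.6, 6.98 and 3.94 CPM in icpk KNO3, 186, 361 and 88.2 CPM in wild type KNO3 and 264, 257 and 296 CPM in wild type KCl (-5.09 ± 0.55, adjusted p = 0.000328). AT5G33355, also defensin-like (-4.53 ± 0.31), and AIG1 (-4.08 ± 0.26), known for its rise in bacterial infection, averaged 0.622 and 3.19 CPM in icpk KNO3, 12.8 and 41.7 CPM in wild type KNO3 and 14.5 and 53.3 CPM in wild type KCl. In all 4 genes the icpk libraries were far below the 6 wild type libraries, whose 2 groups overlapped. AT3G41979, annotated as 5.8S ribosomal RNA, had 0.348, 0.106 and 0.138 CPM in icpk KNO3, 7.11, 2.58 and 7.72 CPM in wild type KNO3 and 4.18, 7.41 and 36.7 CPM in wild type KCl. Its highest value was in wild type KCl replicate 3, in which ribosomal RNA took 3.94% of gene counts, against 0.295% to 1.22% in the other libraries, and the log2 difference was -6.28 ± 1.10, or -4.94 without that library.

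The phosphate, sulfate, clock, flavonoid and iron storage lists held few calls in number. Their called shares were 15.4%, 22.2%, 11.1%, 15.4% and 14.3% of tested members in that order, against 6.99% of all genes. The phosphoenolpyruvate carboxylase kinases PPCK1 (1.61 ± 0.13) and PPCK2 (1.48 ± 0.17), which nitrate raises, were the 2 higher of 13 phosphate genes, with means of 37.0 and 25.7 CPM in icpk KNO3, 55.1 and 47.0 CPM in wild type KNO3 and 12.2 and 9.40 CPM in wild type KCl. On the sulfate list of 9, the reductase APR2 was higher (0.90 ± 0.11, adjusted p = 0.000783; 2 higher without wild type KCl replicate 1), and APR1 was lower (-0.76 ± 0.18, adjusted p = 0.0273), which was lost without any 1 of icpk replicates 2 and 3 and wild type KCl replicates 2 and 3 (adjusted p from 0.0611 to 0.107). Of 18 clock genes LUX (0.68 ± 0.10) and RVE1 (0.64 ± 0.12) were higher and 0 lower. RVE1 averaged 17.2 CPM in icpk KNO3, 7.27 CPM in wild type KNO3 and 11.1 CPM in wild type KCl and was not called without replicate 3 of every group (adjusted p = 0.0677). Of 13 flavonoid genes 2 were lower, the anthocyanin regulators PAP2 (-1.69 ± 0.33, adjusted p = 0.0113) and TT8 (-0.89 ± 0.22, adjusted p = 0.036). PAP2 had 1.65, 0.793 and 1.04 CPM in icpk KNO3, 9.37, 7.23 and 12.2 CPM in wild type KNO3 and 2.82, 3.94 and 4.58 CPM in wild type KCl and was not called without icpk replicate 2 or wild type KCl replicate 2 (adjusted p from 0.0505 to 0.052), and TT8 without any 1 library other than wild type KCl replicate 2 (adjusted p from 0.071 to 0.123), with 1 flavonoid gene lower in each fit that left out 1 library. Of 7 iron storage genes 1 was higher, VTL5 (0.93 ± 0.22, adjusted p = 0.0299), which was not called without any 1 library other than icpk replicate 1 (adjusted p from 0.0738 to 0.109).

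**Figure D5:**
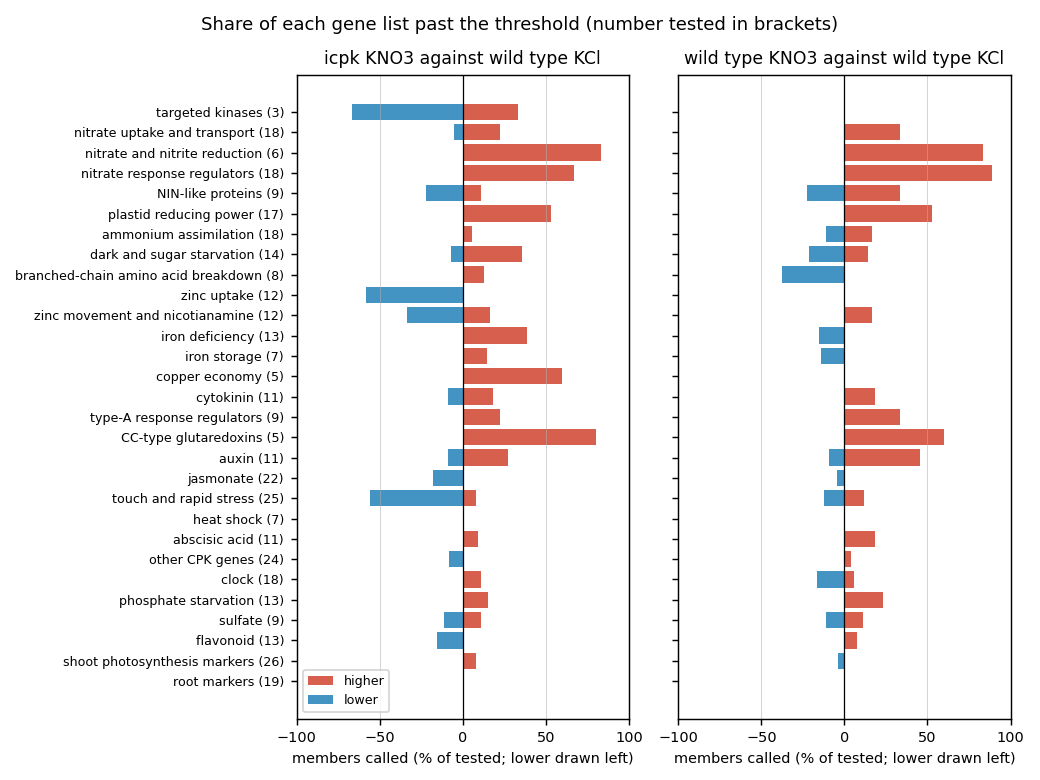
Share of tested genes called higher (right of 0) and lower (left of 0) at an adjusted p below 0.05 in each list, in percent, with the number tested in brackets, for icpk KNO3 (left panel) and wild type KNO3 (right panel) against the same wild type KCl libraries. In icpk the shares over all genes were 3.15% higher and 3.84% lower; the zinc uptake and the touch and rapid stress lists reach furthest left after the targeted kinases, and nitrate reduction and CC-type glutaredoxins furthest right.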

How the data were processed

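For every library the authors deposited unnormalized counts per gene. The tools and build, per the submitters' processing notes, were TopHat, HTSeq, DESeq2 and TAIR10, with no versions or strand setting given in the sources used here. The library kit does not mark strand, so reads of genes that overlap on opposite strands cannot be separated. The 5 summary rows, which took 26.7% to 84.3% of records per library, stayed out of library sizes and tests. No 2 libraries held identical counts. Symbols came from RefSeq (TAIR10.1), which matched 31912 of 32678 identifiers. CPK10 is listed there under another symbol. No coordinates or sequences are given.

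Counts were normalized with TMM factors, filtered with filterByExpr (minimum count 10) and tested with edgeR 4.0.16 (R 4.3.3) in 1 quasi-likelihood model of all 9 libraries with a mean per group. The biological coefficient of variation was 15.1%. SEs were derived from the log2 difference and its F statistic and are approximate, and intervals are at 95%. Bounds and counting intervals cover counting error alone. Same-numbered icpk KNO3 and wild type KCl libraries were not more alike than others, so the main fit had no pairing. Whether any of them were made together is not known from this.

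The 29 gene lists (423 genes, 383 tested) and the genes named were chosen with earlier results of these data known. Named were CPK10, CPK30 and CPK32, the 8 largest rises and falls (called, mean log2 CPM of 1 or more, libraries not overlapping), and up to 4 called members per list by smallest p, or up to 8 from the lists of nitrate, reducing power, zinc uptake and iron deficiency. Alternatives were DESeq2 1.42.0, its size factors, no filter, 6 libraries, each library or replicate 3 of every group left out, organelle genes left out, and a replicate block.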

Additional observations from a re-analysis of the deposited data

How the results depend on the processing

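No alternative reversed a call or a named gene. Counts over all genes moved most with the libraries used. With 1 library left out, genes higher in icpk KNO3 than in wild type KCl ran from 354 to 552 (639 with all) and lower genes from 335 to 960 (779 with all). At least 2-fold higher genes ran from 217 to 297 and at least 2-fold lower genes from 222 to 475. Without replicate 3 of every group, 282 were higher and 194 lower, and 131 were at least 2-fold lower. The highest count of lower genes, 960, came without wild type KCl replicate 1, and the cause of these shifts was not tested. DESeq2 gave 855 higher and 1057 lower. The 6 libraries of the comparison alone gave 531 and 669, and the count of genes at an unadjusted p below 0.05 was 4485 in the fit of all 9. Of the 103 called genes picked by the naming rule, 71 were called under every alternative and 32 lost the call in at least 1. Genes named beside them are not in this tally.

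Same-numbered libraries of this comparison were not more alike than others, which cannot show whether any were made together. Deviations from the group means correlated at -0.222, -0.0973 and 0.102 for same-numbered icpk KNO3 and wild type KCl libraries. Those of other pairs correlated from -0.202 to 0.313. With a replicate block, 594 genes were higher and 750 lower, and 272 and 342 of at least 2-fold. Depth limits low genes most, since wild type KCl replicate 3 has 5987352 counts.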

Other observations

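Among 128 annotated families with at least 15 tested genes, grouped by the text of their annotation and looked at after the results were known, some stood out by their share of genes below the wild type KCl level. These shares are a description with no test. Of 15 tested defensin-like genes 7 were lower in icpk KNO3 and 1 higher, against 3.84% and 3.15% of all genes, and in wild type KNO3 1 was lower than KCl and 0 higher. Of 96 genes with a cysteine/histidine-rich C1 domain, a zinc-binding fold, 23 were lower and 2 higher, with a median log2 difference of -0.56, against 4 lower and 7 higher in wild type KNO3. Calcium-binding EF-hand proteins had 8 lower of 35, VQ motif proteins 5 of 22 and late embryogenesis abundant hydroxyproline-rich glycoproteins 6 of 28. Duplicated homeodomain-like genes had 3 lower of 15, GRAS factors 4 of 21 and cytochrome P450 superfamily genes 3 of 16. TIR-NBS-LRR disease resistance genes, pooled over the wordings of their annotation, had 13 lower of 79. In the other direction, 11 of 38 SAUR-like auxin-responsive genes were higher than KCl and 0 lower, with 12 higher and 4 lower in wild type KNO3. Members of such families share sequence, so their counts may not be independent.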
